A study of Oryza sativa Japonica Group with 36 samples.

Results

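The salicylate and pathogenesis-related (PR) leaf defence genes examined here are 6 genes of rice: PR1a (OS07G0129200), PR1b (OS01G0382000), PR10a (OS12G0555000), PBZ1 (OS12G0555500), Cht1 (OS06G0726200), and NPR1 (OS01G0194300). These genes were set by their identifiers and not by a rule on their measured values, but with earlier results of these data known. They are 6 of the 38026 genes of the deposited table, and all 6 were among the 22057 genes that could be tested. PR1a lies on chromosome 7, PR1b and NPR1 on chromosome 1, PR10a and PBZ1 on chromosome 12, and Cht1 on chromosome 6. A reference table of gene names gave the names PBZ1, Cht1, and NPR1 for these identifiers, whereas PR1a, PR1b, and PR10a are the names under which the genes were chosen. In the rice literature the name PR10a is also used for PBZ1 itself, and here it stands for OS12G0555000 only.

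The samples were flag leaves (FL) and second leaves (SL) of field-grown rice of the cultivar Dongjin, without any treatment or transgene. Both leaves were taken at 6 times given in days after heading (DAH), which ran in steps from 4 through 12, 20, 28, and 36 up to 44 DAH, while the grains filled and the leaves aged, with 3 libraries of polyadenylated RNA in each of the 12 groups, or 36 libraries. Each library was made from the pooled middle parts of several leaves, so the spread between libraries is that between pools of leaves. The question was how the transcripts of these defence genes changed with leaf age and whether they did so differently in the leaf next to the panicle and in the leaf below it.

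Salicylate is the hormone that plants build up when pathogens that feed on living tissue attack them. NPR1 acts as its receptor and as a coactivator that works through TGA transcription factors, which has been worked out mainly in Arabidopsis. The genes switched on include those for PR proteins: small secreted PR1 proteins, intracellular PR10 proteins such as the probenazole-inducible protein PBZ1, and chitinases, which cut the chitin of fungal cell walls. Rice leaves hold much salicylate even when unchallenged, and PR transcripts in rice are also known to change with leaf age and with other hormones, without infection. No pathogen was recorded for these leaves.

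Values are CPM, the read counts on a common scale of depth, relative to library sizes scaled by the authors, and a value in CPM is a level. Differences are in log2 of CPM + 1 after quantile normalization, with the standard error (SE) and the adjusted p of limma, a linear model across all 22057 tested genes with Benjamini-Hochberg adjustment within each comparison. They understate the change of genes with few reads. A gene is said to have risen, fallen, or differed where this adjusted p was below 0.05. Because these are whole pieces of leaf, fewer cells of a type and less RNA per cell cannot be told apart. The libraries held 5713546 to 29789199 reads on genes, with a median of 17017740 in FL and 12194004 in SL. At most 3 reads of a gene in a library, worth 0.106 to 0.511 CPM, were taken as its detection floor, which covers counting error only. The leaf tissue carried its defining transcripts: the sum of 2 small subunit genes of Rubisco was 1772 to 4762 CPM in the FL libraries and 2030 to 3493 CPM in the SL libraries at 36 DAH and earlier, and 3205 to 4216 CPM in SL at 44 DAH. The senescence regulator NAP averaged 53.7 CPM in FL at 4 DAH and 130 to 166 CPM in FL from 20 DAH on, and 75.2 CPM in SL at 4 DAH and 170 to 199 CPM in SL from 20 DAH on. The other senescence gene examined, SGR, was lower again at the end. It averaged 13.4, 61.9, and 32.5 CPM in FL at 4, 28, and 44 DAH, and 17.9, 92.8, and 34.7 CPM in SL. The seed storage gene glutelin GluA1 was at or below 0.540 CPM in every library outside 20 DAH and reached 13.9 CPM in 1 FL library and 22.3 CPM in 1 SL library at 20 DAH. What part seed RNA had in the values at 20 DAH was not tested. Some libraries stood apart for these genes: FL replicate 1 at 44 DAH was the lowest of its group for 5 of the 6 genes, and FL replicate 2 of the same group was the highest for 5 of them. FL replicate 1 at 36 DAH was likewise the highest of its group for 5 of the 6 genes, and SL replicate 2 at 28 DAH the lowest of its group for 5.

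Over the whole time course, 5 of the 6 genes changed in FL, where 78.9% of all tested genes did, and 5 changed in SL, where 77.8% of all tested genes did. The exception in both leaves was PR1a. Averaged over the 6 time points, 5 of the 6 genes differed between the leaves, where 48.8% of all tested genes did. PR1b, Cht1, and NPR1 were higher in FL, and PR10a and PBZ1 were lower in FL. The change over time itself differed between FL and SL for PR10a, PBZ1, and NPR1, 3 of 6, against 20.2% of all tested genes.

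**Figure D1:**
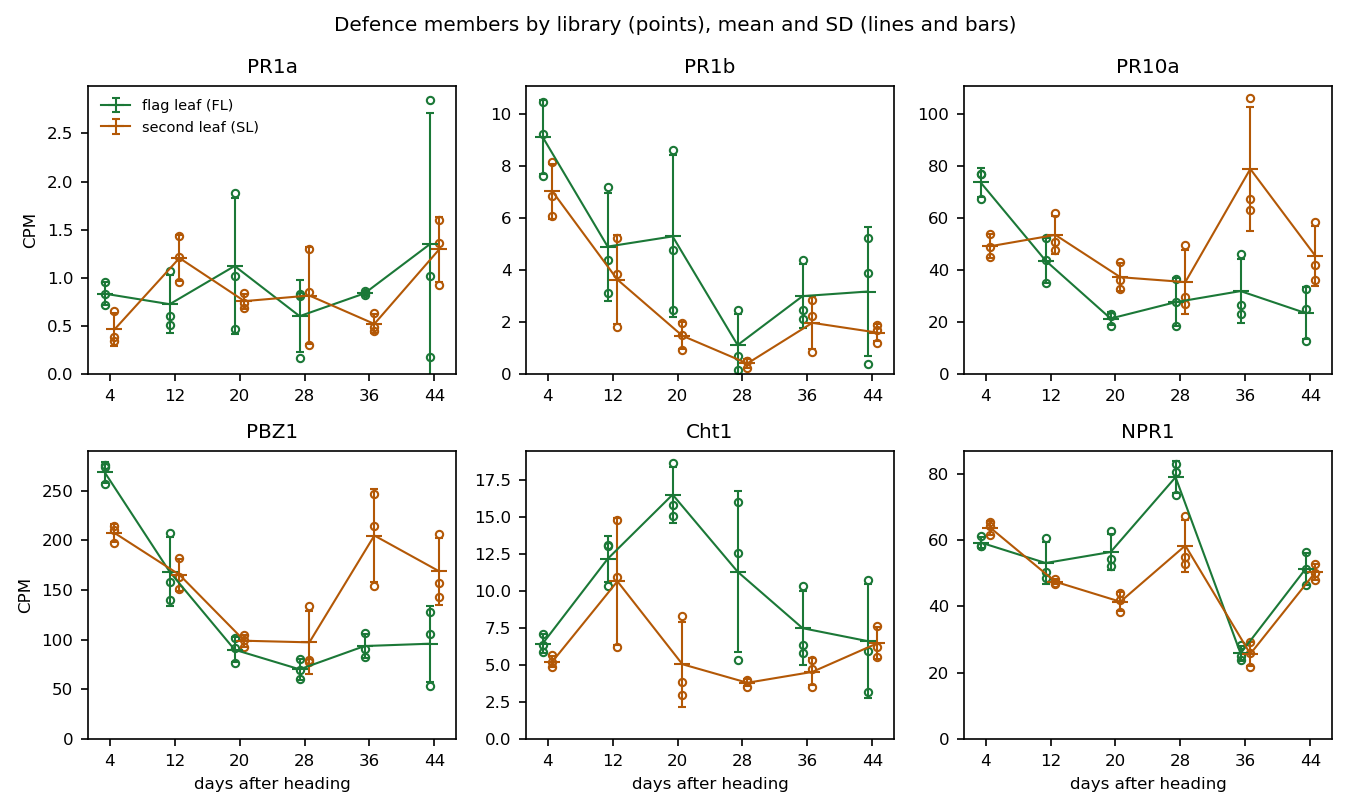
Levels of the 6 defence genes (vertical axis, CPM, from 0) against days after heading (horizontal axis) in FL (green, drawn first) and SL (orange). Open points are libraries, and lines join group means with their SD (n = 3). In FL, PR10a and PBZ1 were highest at 4 DAH, and in SL they averaged 78.9 and 205 CPM at 36 DAH, Cht1 reached 16.5 CPM on average in FL at 20 DAH, and NPR1 was at 21.8 to 29.2 CPM in all 6 libraries of 36 DAH.

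PR10a and PBZ1 were lower in FL late in the time course. Both belong to the family of small intracellular PR10 proteins, and the probenazole-inducible PBZ1 is widely used in rice as a marker of defence and of dying cells. At 4 DAH, PBZ1 had 276, 257, and 273 CPM in the 3 FL libraries, against 211, 214, and 198 CPM in the 3 SL libraries. At 20 DAH, it had 91.4, 101.5, and 77.0 CPM in FL, against 104, 100, and 92.6 CPM in SL. At 36 DAH, it had 107, 91.0, and 82.8 CPM in FL, against 247, 154, and 214 CPM in SL. FL libraries were thus all above SL libraries at 4 DAH, mixed with them at 20 DAH, and all below them at 36 DAH. At the time points between, PBZ1 had 207, 158, and 140 CPM in FL, against 163, 151, and 182 CPM in SL, at 12 DAH, and 60.3, 69.3, and 81.1 CPM in FL, against 77.9, 80.0, and 134 CPM in SL, at 28 DAH. At 44 DAH, it had 53.7, 128, and 106 CPM in FL, against 157, 207, and 143 CPM in SL. The leaves overlapped at 12 and 28 DAH and did not overlap at 44 DAH.

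In FL, PBZ1 fell from 4 DAH on at every later time point. The log2 change was -0.66 at 12 DAH (SE 0.23, adjusted p = 0.0336), where 28.6% of all tested genes changed in FL. It was -1.48 at 20 DAH (adjusted p = 7.63e-06), where 45.5% changed, and -1.84 at 28 DAH (adjusted p = 1.22e-07), where 55.3% changed. At 36 DAH the change was -1.37 (adjusted p = 3.79e-05), where 31.4% changed, and at 44 DAH it was -1.48 (adjusted p = 3.57e-06), where 57.4% changed. In SL, PBZ1 fell at 20 and 28 DAH, by 1.16 and 1.27 on the log2 scale (adjusted p = 0.000174 and 3.89e-05), where 43.7% and 53% of all tested genes changed in SL. At 36 DAH its level in SL was again near that of 4 DAH, with a log2 change of -0.05 (SE 0.23, adjusted p = 0.893), where 34.6% of genes changed. At 12 and 44 DAH the changes in SL were -0.46 and -0.35 (adjusted p = 0.136 and 0.21), where 32.7% and 56.2% changed. The fall in FL at 12 DAH was lost when either of FL replicates 2 and 3 at 12 DAH or any of the 3 FL libraries at 4 DAH was left out (adjusted p up to 0.117), and with no filter on low values (adjusted p = 0.0552).

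PR10a, which stands 5 loci before PBZ1 in the order of the chromosome, also fell in FL. At 4 DAH, it had 67.3, 77.0, and 76.8 CPM in FL, against 44.9, 53.9, and 48.8 CPM in SL. At 12 DAH, it had 52.3, 43.7, and 34.9 CPM in FL, against 47.8, 50.9, and 62.0 CPM in SL. At 20 DAH, it had 23.3, 18.6, and 22.3 CPM in FL, against 43.2, 32.6, and 36.1 CPM in SL. The FL libraries were all above the SL libraries at 4 DAH and all below them at 20 DAH. At 28 DAH, PR10a had 18.5, 27.9, and 36.8 CPM in FL, against 29.6, 27, and 49.6 CPM in SL. At 36 DAH, it had 46.1, 26.6, and 23.2 CPM in FL, against 106, 63.1, and 67.4 CPM in SL. At 44 DAH, it had 12.8, 32.8, and 24.9 CPM in FL, against 42.1, 58.3, and 36.2 CPM in SL. The leaves overlapped at 12 and 28 DAH, and every FL library lay below every SL library at 20, 36, and 44 DAH.

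In FL, PR10a fell by 1.68 on the log2 scale at 20 DAH (SE 0.27, adjusted p = 1.18e-05) and by 1.62 at 44 DAH (adjusted p = 1.05e-05). The log2 change was -1.37 at 28 DAH (adjusted p = 0.000109) and -1.16 at 36 DAH (adjusted p = 0.00163). The fall by 0.72 at 12 DAH had an adjusted p of 0.0493 and was lost when any of 22 of the 36 libraries was left out (adjusted p up to 0.177). It was also lost with a pseudocount of 0.1 (0.0536), with no filter on low values (0.0781), and with the FL libraries alone (0.0583). In SL, PR10a rose at 36 DAH only, by 0.71 (adjusted p = 0.0449). This call was lost when any of 11 libraries was left out, with an adjusted p up to 0.231 without SL replicate 1 at 36 DAH, and the change was then 0.47. It was also lost with edgeR (0.0521), without quantile normalization (0.0833), and with no filter on low values (0.0709). The changes in SL at 12, 20, 28, and 44 DAH were 0.07, -0.39, -0.57, and -0.14 (adjusted p = 0.876, 0.258, 0.0827, and 0.69). Without SL replicate 3 at 28 DAH, the change at 28 DAH was -0.82 (adjusted p = 0.0205).

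Between the leaves, PR10a was lower in FL at 36 DAH by a log2 difference of -1.38 (SE 0.27, adjusted p = 0.00299), which is 0.386-fold on this scale. PBZ1 was lower in FL at 36 DAH by -1.16 (SE 0.23, adjusted p = 0.00318), or 0.447-fold. These were the only 2 of the 6 genes to differ at 36 DAH, where 10.9% of all tested genes did. The same pair differed at 44 DAH, where 3.8% of all tested genes did, by -0.99 for PR10a (adjusted p = 0.0399) and -0.97 for PBZ1 (adjusted p = 0.018). At 44 DAH these calls rested on single libraries. Without FL replicate 1, the differences were -0.62 and -0.59 (adjusted p = 0.252 and 0.149), and without SL replicate 2 they were -0.79 and -0.78 (adjusted p = 0.214 and 0.126). The call of PR10a was also lost without FL replicate 3 or SL replicate 1 (adjusted p = 0.0781 and 0.0579), and with edgeR on the recovered reads (adjusted p = 0.0631) or no filter on low values (0.0578). At 36 DAH both calls held whichever library was left out. When only the 6 libraries of a time point were fitted, the adjusted p of both genes was 0.154 at 36 DAH and above 0.4 at 44 DAH, and no gene at all was called by limma at these time points, with 4340 genes at 36 DAH and 2350 at 44 DAH having an unadjusted p below 0.05.

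At 20 DAH, PR10a was lower in FL by -0.80 (SE 0.27, adjusted p = 0.0272), and the adjusted p was 0.051 to 0.102 without any of the 3 FL libraries or SL replicates 1 or 3 of that time point. At 4, 12, and 28 DAH its differences were 0.49, -0.29, and -0.31 (adjusted p = 0.263, 0.496, and 0.445). When the 6 libraries of 4 DAH were fitted alone, PR10a was called as higher in FL at 4 DAH (adjusted p = 0.0051). For PBZ1, FL minus SL was 0.16, -0.04, -0.15, and -0.41 at 4, 12, 20, and 28 DAH, with adjusted p of 0.212 or more. Averaged over the time points, the difference was -0.55 for PR10a (SE 0.11, adjusted p = 0.000208) and -0.43 for PBZ1 (SE 0.095, adjusted p = 0.000473). The change over time differed between FL and SL with an adjusted p of 0.011 for PR10a and 0.016 for PBZ1.

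**Figure D2:**
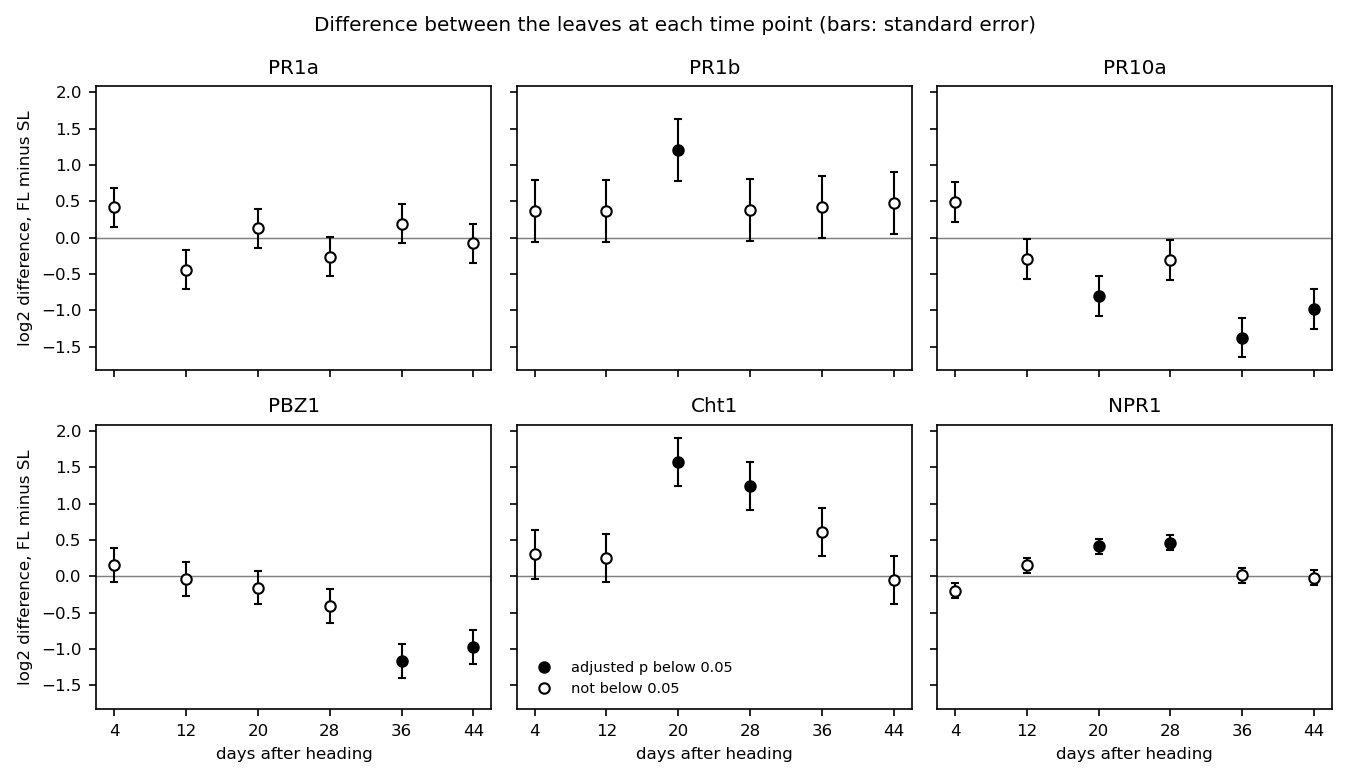
Log2 difference of FL minus SL (vertical axis) at each time point (horizontal axis, days after heading) for the 6 genes, with bars for the SE and filled points where the adjusted p of limma was below 0.05. PR10a and PBZ1 are below 0 at 36 and 44 DAH, at -1.38 and -0.99 for PR10a and at -1.16 and -0.97 for PBZ1, while Cht1 is above 0 at 20 and 28 DAH, at 1.58 and 1.24.

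The 36 DAH peak of SL was measured against its own neighbouring time points. Set against the mean of 28 and 44 DAH, the level at 36 DAH in SL was higher by 1.06 for PR10a (SE 0.24, adjusted p = 0.000443) and by 0.76 for PBZ1 (SE 0.20, adjusted p = 0.00238). In FL the same differences were 0.34 and 0.29 (adjusted p = 0.241 and 0.232). In this comparison 51.2% of all tested genes were called in SL and 53.2% in FL, so a deviation at 36 DAH was shared with many genes. The 3 SL libraries of 36 DAH were also shallow, with 6113470 to 8435020 reads, against 15469000 to 17206000 in FL (to 6 digits), and the part of depth in these values was not tested.

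The 2 PR10 genes also moved together from library to library. Over the 36 libraries, the Pearson correlation of their log2 values was 0.88, and it was 0.85 after the mean of each leaf and time point was taken away. These libraries share time points and leaves, and within a group they share whatever sets 1 pool of leaves apart, so this is a description of these libraries. The 3 FL libraries at 44 DAH show it: replicate 1 was lowest and replicate 2 highest for both genes. Of the 11 neighbouring pairs in the order of the 12 group means, 10 had overlapping ranges for PR10a and 9 for PBZ1, so most neighbours in this order were not separated. PR10a ran from 78.9 ± 23.7 CPM in SL at 36 DAH down to 21.4 ± 2.44 CPM in FL at 20 DAH, and PBZ1 from 269 ± 10.4 CPM in FL at 4 DAH down to 70.2 ± 10.5 CPM in FL at 28 DAH (SD, n = 3 each).

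**Figure D3:**
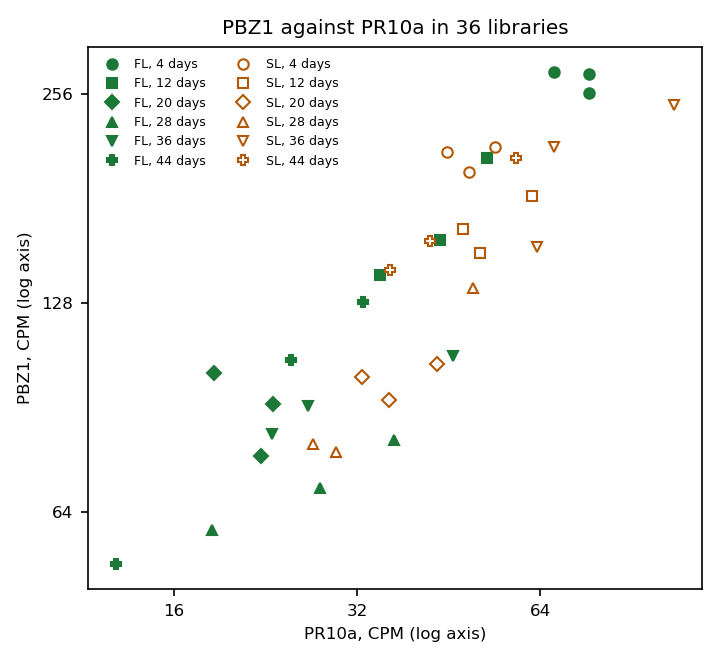
Level of PBZ1 (vertical axis, CPM, log scale) against that of PR10a (horizontal axis, CPM, log scale) in each of the 36 libraries, with FL filled in green, SL open in orange, and 1 symbol per time point. The Pearson correlation was 0.88, from FL replicate 1 at 44 DAH with 12.8 and 53.7 CPM at the lower left to the FL libraries of 4 DAH and the SL libraries of 36 DAH at the upper right.

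In the order of genes of the reference table, 4 loci lie between PR10a and PBZ1, and the files and the reference give them no name. OS12G0555100 had no read in any of the 36 libraries, which allows up to 0.106 to 0.511 CPM in a library. OS12G0555200 had a course like that of PR10a. It averaged 27.9 ± 2.93 CPM in FL, against 16.3 ± 1.87 CPM in SL, at 4 DAH, and 10.3 ± 4.21 CPM in FL, against 24.7 ± 8.23 CPM in SL, at 36 DAH (SD, n = 3 each). It was lower in FL at 36 DAH by -1.22 (adjusted p = 0.0146), and its time course was not the same in FL and SL (adjusted p = 0.0199). OS12G0555200 was the gene with the highest correlation over the 36 libraries with PR10a (0.89) and with PBZ1 (0.90) among all tested genes, and PR10a and PBZ1 were each other's second highest (0.88). OS12G0555300 was lower in FL at 36 DAH by -1.06 (adjusted p = 0.00686), at 1.25 CPM in FL and 3.63 CPM in SL on average. OS12G0555400 averaged 2.31 to 4.67 CPM in the 12 groups and did not pass the test over time in FL (adjusted p = 0.0518) or in SL (adjusted p = 0.101). The authors let reads align to several places, and how such reads were counted is not given in the sources used here, so reads of near-identical copies could have been split or lost and the separate levels of these loci are uncertain.

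**Figure D4:**
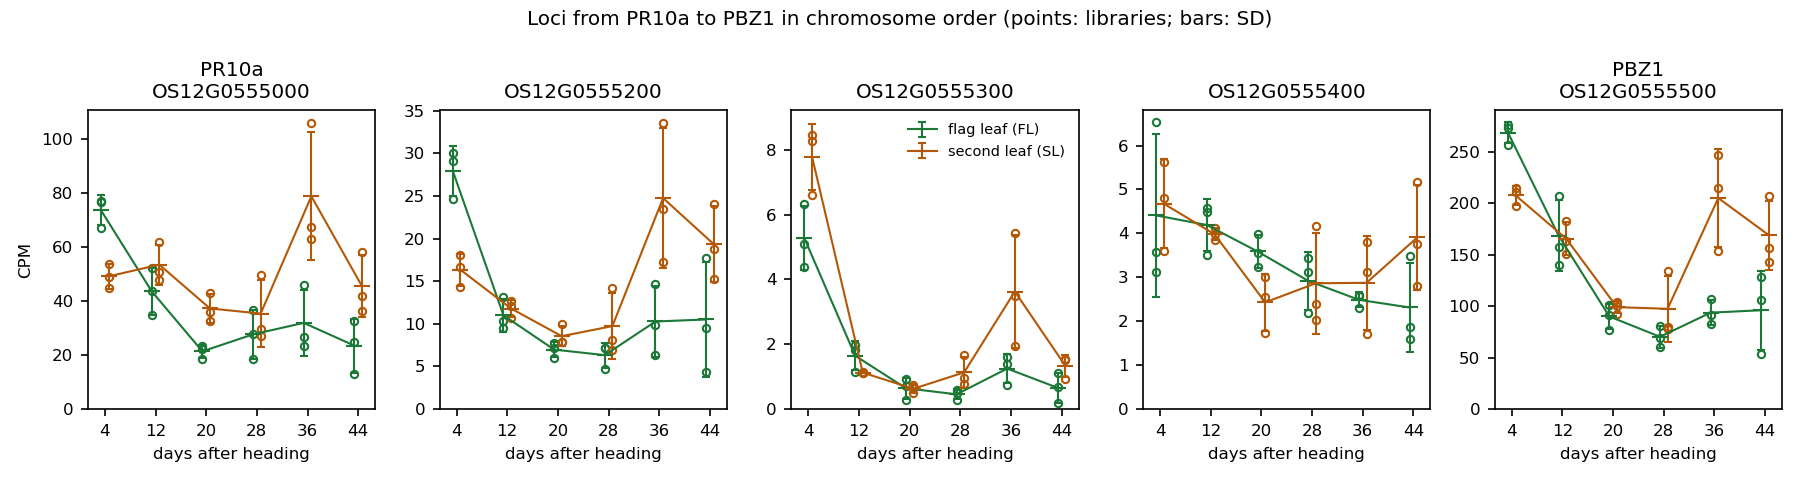
Levels (vertical axes, CPM, each from 0) of the 5 loci with reads from PR10a to PBZ1, in the order of the chromosome, against days after heading, in FL (green) and SL (orange), with points for libraries and bars for the SD (n = 3). At 36 DAH the mean of SL is above that of FL in each panel, by least in OS12G0555400 (2.49 CPM in FL, 2.87 CPM in SL).

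Cht1, a class I chitinase gene, rose in FL to a peak at 20 DAH and was higher there than in SL. At 4 DAH, it had 7.14, 5.88, and 6.37 CPM in FL, against 5.18, 4.89, and 5.66 CPM in SL. At 12 DAH, it had 10.4, 13.1, and 13.1 CPM in FL, against 6.23, 11, and 14.8 CPM in SL. At 20 DAH, it had 18.7, 15.1, and 15.8 CPM in FL, against 2.97, 8.36, and 3.86 CPM in SL. At 20 DAH the lowest FL library thus stood well above the highest SL library. At 28 DAH, Cht1 had 16.1, 12.6, and 5.35 CPM in FL, against 3.97, 3.52, and 3.93 CPM in SL. At 36 DAH, it had 10.3, 6.36, and 5.79 CPM in FL, against 5.33, 3.55, and 4.75 CPM in SL. At 44 DAH, it had 3.18, 10.8, and 5.93 CPM in FL, against 7.67, 5.56, and 6.21 CPM in SL. The FL libraries were also all above the SL libraries at 4, 28, and 36 DAH, with narrower gaps. The lowest FL and highest SL values were 5.88 and 5.66 CPM at 4 DAH, 5.35 and 3.97 CPM at 28 DAH, and 5.79 and 5.33 CPM at 36 DAH. The leaves overlapped at 12 and 44 DAH.

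In FL, Cht1 rose by 1.28 at 20 DAH against 4 DAH (SE 0.33, adjusted p = 0.0023), a 2.43-fold change on this scale. The change at 28 DAH was 0.70 (adjusted p = 0.0723) and depended on single libraries of that time point, with 1.12 (adjusted p = 0.00519) without FL replicate 3 and 0.40 (adjusted p = 0.368) without FL replicate 1. At 36 and 44 DAH the changes were 0.23 and 0.02 (adjusted p = 0.642 and 0.955). At 12 DAH, Cht1 rose by 0.87 in FL (adjusted p = 0.0472) and by 0.92 in SL (adjusted p = 0.0332). Neither rise was firm: that in FL was lost when any of 21 of the 36 libraries was left out (adjusted p up to 0.138) and in each of the other settings run, among them edgeR (0.0505), no filter on low values (0.0761), and the FL libraries alone (0.0594), and that in SL when any SL library of 4 DAH or SL replicate 2 or 3 of 12 DAH was left out (adjusted p up to 0.176), without quantile normalization (0.0526), or with no filter on low values (0.0554). The test over time in SL (adjusted p = 0.027) was lost without SL replicate 2 or 3 at 12 DAH (adjusted p = 0.0994 and 0.184).

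Between the leaves, Cht1 was higher in FL by 1.58 at 20 DAH (SE 0.33, adjusted p = 0.00072), or 2.99-fold, and by 1.24 at 28 DAH (adjusted p = 0.00688), or 2.37-fold. At 28 DAH the difference was 0.94 (adjusted p = 0.0732) without FL replicate 1, and the call was also lost when the 6 libraries of 28 DAH were fitted alone (adjusted p = 0.0585). At 4, 12, 36, and 44 DAH the differences were 0.30, 0.26, 0.61, and -0.05 (adjusted p = 0.631, 0.633, 0.212, and 0.953). At 20 DAH, 4 of the 6 genes differed between the leaves, against 30.4% of all tested genes, and at 28 DAH 2 did, against 23.7%. At 4 and 12 DAH none of the 6 was called in the fit of all 36 libraries, against 14.1% and 13.5% of all tested genes, and in that fit none had an unadjusted p below 0.05. None was called by edgeR at these time points either, while limma on the 6 libraries of 4 DAH alone called PR10a (adjusted p = 0.0051) and PR1a (adjusted p = 0.0495), both higher in FL. Averaged over time points, the difference for Cht1 was 0.66 (SE 0.14, adjusted p = 0.000218). The interaction of leaf and time for Cht1 had an adjusted p of 0.0558, which was below 0.05 with edgeR (0.046), without quantile normalization (0.0391), and without any of 5 single libraries, with the lowest value of 0.00934 without FL replicate 3 at 28 DAH. The other 4 libraries were FL replicate 2 at 44 DAH (0.017), SL replicate 1 at 12 DAH (0.0321), SL replicate 2 at 20 DAH (0.0177), and SL replicate 2 at 36 DAH (0.0483). In the order of the 12 group means, 9 of 11 neighbouring pairs overlapped in range, from 16.5 ± 1.89 CPM in FL at 20 DAH down to 3.81 ± 0.25 CPM in SL at 28 DAH (SD, n = 3 each). The genes whose log2 values followed Cht1 most closely over the 36 libraries were OS07G0556200 (Pearson correlation 0.83), which the reference table names petC, and OS06G0591400 (0.82), which it does not name.

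NPR1, the salicylate receptor and coactivator, had its lowest levels in both leaves at 36 DAH. At 28 DAH, it had 73.5, 80.4, and 82.8 CPM in FL, against 54.8, 52.8, and 67.3 CPM in SL. At 36 DAH, it had 28.3, 23.9, and 25.2 CPM in FL, against 29.2, 25.9, and 21.8 CPM in SL. At 44 DAH, it had 51.2, 46.4, and 56.3 CPM in FL, against 47.9, 52.8, and 50.2 CPM in SL. All 6 libraries of 36 DAH were below all 30 others, and the leaves overlapped at 36 and 44 DAH but not at 28 DAH. At 4 DAH, NPR1 had 61.1, 58.3, and 58.3 CPM in FL, against 64.3, 61.4, and 65.3 CPM in SL. At 12 DAH, it had 50.3, 60.5, and 48.4 CPM in FL, against 48.3, 47.1, and 46.9 CPM in SL. At 20 DAH, it had 54.4, 52.2, and 62.6 CPM in FL, against 44.0, 41.8, and 38.3 CPM in SL. FL libraries were all below SL libraries at 4 DAH and all above them at 12 and 20 DAH.

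Against the mean of 28 and 44 DAH, NPR1 at 36 DAH was lower in FL (log2 difference -1.22, SE 0.09, adjusted p = 2.58e-12). In SL it was lower by a log2 difference of -1.01 (SE 0.09, adjusted p = 1.72e-10). NPR1 was the only one of the 6 called in FL in this comparison, where 53.2% of all tested genes were called. In SL, where 51.2% of all tested genes were called, it was called with PR10a and PBZ1, which deviated upward. A deviation at 36 DAH was thus common among all tested genes. Against 4 DAH, NPR1 at 36 DAH was lower by -1.09 in FL (adjusted p = 2.02e-09) and by -1.30 in SL (adjusted p = 8.24e-11). In FL it rose at 28 DAH by 0.43 (SE 0.10, adjusted p = 0.000637), and its changes at 12, 20, and 44 DAH were -0.12, -0.02, and -0.18 (adjusted p = 0.381, 0.895, and 0.136). In SL it fell at 12, 20, and 44 DAH, with log2 changes of -0.48, -0.64, and -0.36 (adjusted p = 0.000543, 9.42e-06, and 0.00358), and changed by -0.23 at 28 DAH (adjusted p = 0.0591), which was below 0.05 without SL replicate 3 at 28 DAH (0.00839), SL replicate 1 at 36 DAH (0.0469), or SL replicate 3 at 36 DAH (0.0442).

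NPR1 was higher in FL by 0.42 at 20 DAH (SE 0.10, adjusted p = 0.00278) and by 0.46 at 28 DAH (adjusted p = 0.00138, or 0.0515 when the 6 libraries of 28 DAH were fitted alone). At 4, 12, 36, and 44 DAH its differences were -0.20, 0.15, 0.01, and -0.02 (adjusted p = 0.211, 0.324, 0.942, and 0.936). The average difference was 0.14 (SE 0.04, adjusted p = 0.0073), or 1.10-fold, and its time course was not the same in FL and SL (adjusted p = 0.00632). Its group means were the best separated of the set, with 7 of 11 neighbouring pairs overlapping in range, from 78.9 ± 4.85 CPM in FL at 28 DAH down to 25.7 ± 3.69 CPM in SL at 36 DAH (SD, n = 3 each). The 2 genes whose log2 values followed NPR1 most closely over the 36 libraries were OS01G0695800 (Pearson correlation 0.90), which the reference table does not name, and OS10G0103700 (0.88), which it names HOX15.

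PR1b, a gene for a small secreted PR1 protein, was lower at 28, 36, and 44 DAH than at 4 DAH in both leaves. At 4 DAH, it had 9.24, 7.63, and 10.5 CPM in FL, against 6.84, 8.15, and 6.08 CPM in SL. At 12 DAH, it had 3.13, 7.18, and 4.41 CPM in FL, against 1.83, 5.23, and 3.85 CPM in SL. At 20 DAH, it had 4.79, 8.63, and 2.47 CPM in FL, against 1.98, 0.939, and 1.52 CPM in SL. The leaves overlapped at 4 and 12 DAH and did not at 20 DAH. At 28 DAH, PR1b had 0.707, 2.49, and 0.173 CPM in FL, against 0.497, 0.225, and 0.521 CPM in SL, with 3 reads in FL replicate 3 and in SL replicate 2. At 36 DAH, it had 4.4, 2.14, and 2.47 CPM in FL, against 2.22, 0.856, and 2.85 CPM in SL. At 44 DAH, it had 0.413, 5.22, and 3.90 CPM in FL, against 1.87, 1.22, and 1.71 CPM in SL. The lowest levels in both leaves were thus at 28 DAH, and the 2 libraries there with 3 reads were at the detection floor.

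Against 4 DAH, the log2 change of PR1b at 28 DAH was -2.36 in FL (SE 0.43, adjusted p = 3.08e-05) and -2.38 in SL (adjusted p = 3.18e-05). At 36 and 44 DAH it was -1.31 and -1.41 in FL (adjusted p = 0.0196 and 0.00612) and -1.37 and -1.52 in SL (adjusted p = 0.0135 and 0.00342). At 20 DAH it was -0.75 in FL (adjusted p = 0.159) and -1.59 in SL (adjusted p = 0.00346), and at 12 DAH it was -0.76 in both leaves (adjusted p = 0.192 and 0.183). In FL at 44 DAH the change was -0.72 (adjusted p = 0.124) without replicate 1. In FL at 36 DAH the call was lost without FL replicate 1 or 3 of 4 DAH or FL replicate 2 or 3 of 36 DAH (adjusted p = 0.0518, 0.0631, 0.0838, and 0.0654), and with a pseudocount of 0.1 (0.0715). In SL at 36 DAH it was lost without SL replicate 2 of 4 DAH or of 36 DAH (adjusted p = 0.0515 and 0.0773).

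The FL level of PR1b was above the SL level on average over the time points, by 0.53 on the log2 scale (SE 0.17, adjusted p = 0.0128). By single time points, PR1b was called at 20 DAH, with a difference of 1.2 (SE 0.43, adjusted p = 0.033). That call was lost without FL replicate 1 or 2 or SL replicate 2 or 3 of 20 DAH (adjusted p = 0.0659, 0.199, 0.116, and 0.0736), with a pseudocount of 0.1 (0.0656), and with no filter on low values (0.0576). At the other time points the differences were 0.36 to 0.48, with adjusted p of 0.514 or more. The interaction of leaf and time gave an adjusted p of 0.781. All 11 neighbouring pairs of group means overlapped in range, from 9.11 ± 1.43 CPM in FL at 4 DAH down to 0.414 ± 0.165 CPM in SL at 28 DAH (SD, n = 3 each). The genes most like PR1b over the 36 libraries were OS03G0850800 and OS03G0663500 (Pearson correlation 0.82 each), neither of which the reference table names. The next locus in the table, OS01G0382200, had no read in any library.

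PR1a, the other PR1 gene, was measured near the detection floor, with 3 to 53 reads per library. Over the 12 groups its lowest, median, and highest library values were 0.173, 0.831, and 2.85 CPM. At 4 DAH, it had 0.960, 0.834, and 0.715 CPM in FL, against 0.662, 0.384, and 0.349 CPM in SL. At 44 DAH, it had 0.177, 2.85, and 1.02 CPM in FL, against 1.36, 1.60, and 0.932 CPM in SL. At 36 DAH, it had 0.841, 0.819, and 0.860 CPM in FL, against 0.444, 0.489, and 0.633 CPM in SL, with 4 reads in each of the 3 SL libraries. The 3 FL libraries at 44 DAH thus spanned nearly the whole range of the gene, while all FL libraries were above all SL libraries at 4 and 36 DAH. PR1a did not pass the test over time in FL (adjusted p = 0.487) or SL (adjusted p = 0.103), and FL minus SL was -0.01 on average (SE 0.11, adjusted p = 0.967). The change in FL at 44 DAH was 0.19 (adjusted p = 0.575), and its sign turned on single libraries, with -0.25 (adjusted p = 0.417) without FL replicate 2 of 44 DAH and 0.64 (adjusted p = 0.0257) without FL replicate 1. Without FL replicate 1 at 44 DAH, the adjusted p over time in FL was 0.0133. In SL the adjusted p over time was 0.0211 and 0.0254 without FL replicate 1 and FL replicate 2 at 44 DAH, which enter this test through the shared estimate of the spread. When the 18 SL libraries were fitted alone, PR1a was called over time (adjusted p = 0.0109), at 12 DAH (adjusted p = 0.0123), and at 36 DAH against its neighbours, with -0.42 (adjusted p = 0.0348, against 0.137 in the fit of all libraries). In SL at 44 DAH, PR1a was higher than at 4 DAH by 0.69 (SE 0.27, adjusted p = 0.0319), which was lost without SL replicate 2 or 3 of 4 DAH or SL replicate 1 or 2 of 44 DAH (adjusted p = 0.0712, 0.0945, 0.0795, and 0.0932). The change of PR1a at 12 DAH in SL was 0.66 (adjusted p = 0.0628), with adjusted p of 0.0194 and 0.0222 without FL replicate 1 and FL replicate 2 at 44 DAH. All 11 neighbouring pairs of group means overlapped in range. The 2 genes most like PR1a reached correlations of only 0.57 (OS04G0618700) and 0.54 (OS01G0215100), in a gene with so few reads. The locus after PR1a, OS07G0129300, without a name in the reference, averaged 7.50 ± 2.03 CPM in FL and 7.06 ± 1.30 CPM in SL at 4 DAH and fell in both leaves.

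The wider pathway was read from lists of genes chosen with these results known, keeping only identifiers to which the reference table or the study's gene descriptions gave a name. For these, the mean of the 5 later time points was set against 4 DAH in each leaf. This mean does not show a rise or fall among the later time points. Over all tested genes, 24.6% were higher later and 26.1% lower in FL, and 27.2% were higher and 24.1% lower in SL, with medians of 0.01 and 0.02. By this measure, of the 6 genes themselves, 1 was higher and 4 were lower in FL, and 3 were lower in SL.

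Of the 10 named chitinases, 7 could be tested, Cht1 among them. In FL, 1 was higher later, 3 were lower, and 3 were not called, with a median of -0.15. In SL, 5 were lower, with a median of -1.05, and the other 2 were Cht1 (0.20) and Cht3 (-0.10). Cht4 and Cht5 fell the most. Cht4 averaged 31 CPM in FL, against 87.3 CPM in SL, at 4 DAH, and 0.17 CPM in FL, against 0.0254 CPM in SL, at 44 DAH, and 18 of the 36 libraries had 3 of its reads or fewer. Cht5 averaged 23.8 CPM in FL, against 50.6 CPM in SL, at 4 DAH, and 0.890 CPM in FL, against 0.287 CPM in SL, at 44 DAH, with at most 3 reads in 10 libraries. Averaged over time points, 4 of the 7 chitinases were higher in FL (Cht1, Cht6, Cht8, and Cht11), and 1, Cht4, was lower in FL, so that 5 of 7 were called, against 48.8% of all tested genes. Cht3, which stands next to Cht1 in the reference order, was at or below 3 reads in 15 libraries and did not pass the test over time in FL (adjusted p = 0.121), while it passed in SL (adjusted p = 0.00335). A beta-glucanase gene (OS05G0375400), whose product cuts a glucan of cell walls, and 2 thaumatin-like genes (OS12G0630100 and OS12G0569500), of the PR5 family, all fell in both leaves. OS12G0630100 had at most 3 reads in 21 libraries, and OS12G0569500 in 4. The beta-glucanase gene averaged 49.4 CPM in FL, against 52.3 CPM in SL, at 4 DAH, and 0.986 CPM in FL, against 0.488 CPM in SL, at 44 DAH.

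**Figure D5:**
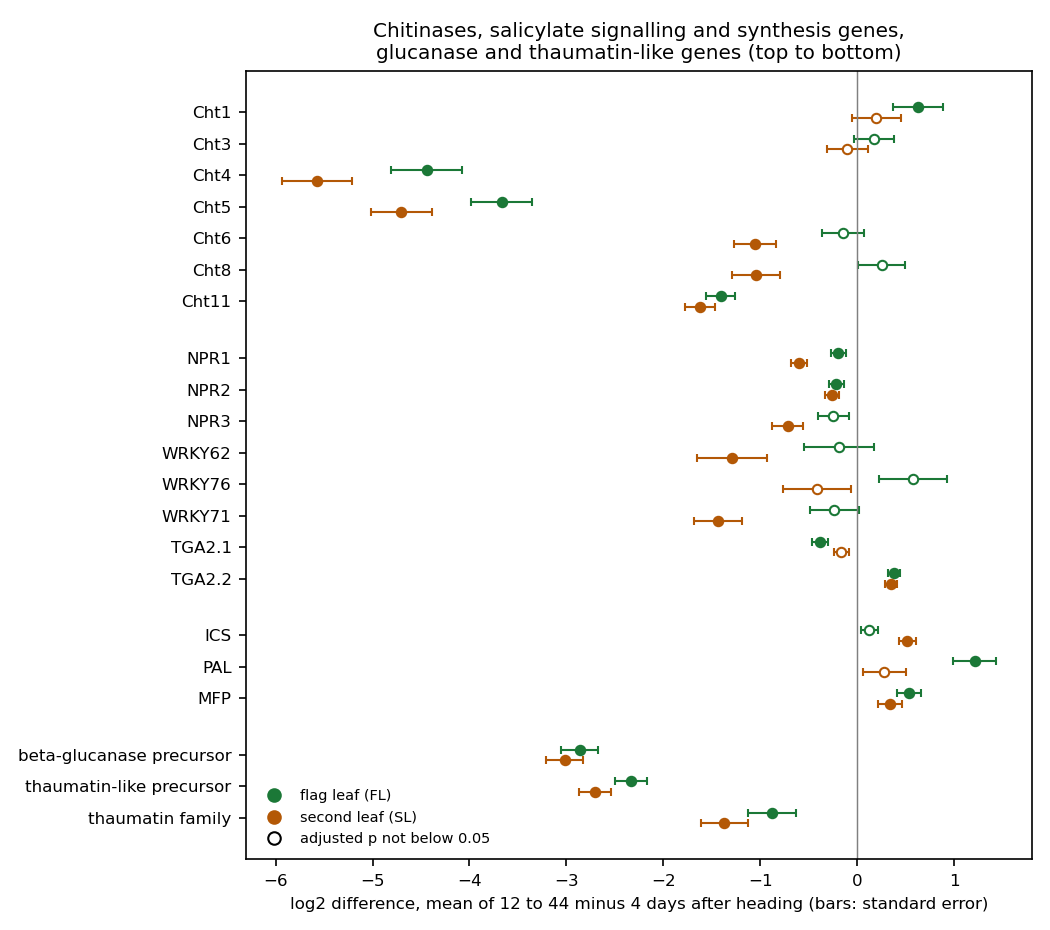
Log2 difference between the mean of 12 to 44 DAH and 4 DAH (horizontal axis, bars for the SE) for the named genes of the wider pathway (rows), in FL (green, upper point of each row) and SL (orange, lower point), filled where the adjusted p of limma was below 0.05. Cht4 and Cht5 lie farthest to the left, at -4.44 and -3.67 in FL and at -5.57 and -4.70 in SL, while PAL lies farthest to the right in FL, at 1.21.

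Of the 8 named genes of salicylate signalling, NPR1 included, 1 was higher later and 3 were lower in FL (median -0.21), and 1 was higher and 5 were lower in SL (median -0.51). TGA2.2, a TGA transcription factor gene, was higher by 0.38 in FL (adjusted p = 7.77e-06) and by 0.35 in SL (adjusted p = 2.39e-05). The rise was not steady: in FL, TGA2.2 averaged 107 CPM at 4 DAH, 169 CPM at 28 DAH, 109 CPM at 36 DAH, and 162 CPM at 44 DAH. WRKY71, a transcription factor gene of defence signalling in rice, was lower in SL by -1.44 (adjusted p = 2.15e-05), with -0.24 in FL (adjusted p = 0.447). Its means in FL were 29.2 CPM at 4 DAH, 14.4 CPM at 12 DAH, and 44.6 CPM at 44 DAH. In SL they were 70.8 CPM at 4 DAH, 15.3 CPM at 20 DAH, and 49.9 CPM at 44 DAH. WRKY62, known in rice as a repressor of defence, was lower in SL by -1.29 (adjusted p = 0.00347), with -0.19 in FL (adjusted p = 0.683), and its relative WRKY76 changed by 0.57 in FL and -0.42 in SL (adjusted p = 0.17 and 0.333). The interaction of leaf and time over all time points had adjusted p of 0.132 for WRKY71 and 0.223 for WRKY62.

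For salicylate synthesis, 3 named genes were tested. In each leaf 2 were called higher later, with medians of 0.53 in FL and 0.34 in SL. PAL, which encodes phenylalanine ammonia-lyase, the entry to phenylpropanoids and to a route to salicylate, was higher by 1.21 in FL (SE 0.22, adjusted p = 4.18e-05) and by 0.28 in SL (adjusted p = 0.31), and its time course was not the same in FL and SL (adjusted p = 8e-05). PAL averaged 264 CPM in FL, against 42.7 CPM in SL, at 28 DAH. The gap was smaller later, with 191 CPM in FL against 123 CPM in SL at 36 DAH. At 44 DAH, FL averaged 78.3 CPM and SL 93.9 CPM. MFP, for a multifunctional enzyme of beta-oxidation, was higher by 0.53 in FL (adjusted p = 0.000599) and by 0.34 in SL (adjusted p = 0.0212). The isochorismate synthase gene ICS was higher by 0.51 in SL (adjusted p = 1.57e-05), with 0.12 in FL (adjusted p = 0.255). In SL, ICS averaged 18.9 CPM at 4 DAH, 17.8 CPM at 36 DAH, and 44.2 CPM at 44 DAH. In FL, it averaged 38.6 CPM at 4 DAH, 27.9 CPM at 12 DAH, and 63.5 CPM at 44 DAH.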

How the data were processed

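FL and SL libraries were grouped by the leaf, time point, and replicate number in their titles. According to their methods and processing notes, the authors trimmed reads with cutadapt 1.2.1, aligned them to IRGSP-1.0 with TopHat2 2.0.10, and counted them with HTSeq 0.6.1. The deposited signal values are CPM on effective library sizes (TMM, in edgeR), before the logarithm and quantile normalization that their methods describe. Reads were recovered from the value of 1 read in each column: 100% of values were whole within 0.01 reads.

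Here, log2(CPM + 1) was quantile normalized, and the 22057 genes that reached 1 on this log2 scale in at least 3 libraries were fitted with limma 3.58.1 (trend) in R 4.3.3, with 12 groups of leaf and time point sharing 1 estimate of the spread. P-values were adjusted by Benjamini-Hochberg within each comparison over all tested genes, with 0.05 as the threshold. The study used analysis of variance and two-sample tests on the same values, of which limma is a moderated form. Scripts were tested on simulated data. Alternatives were a pseudocount of 0.1, no quantile normalization, no filter, edgeR 4.0.16 on the recovered reads, a replicate block, fits of only the libraries compared, and leaving out each library.

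The members, lists, and comparisons were chosen with earlier results of these data known. Named were all 6 members, the 2 tested genes most correlated with each over the 36 libraries, and, from each list, up to 2 genes with the largest rises and 2 with the largest falls from 4 DAH among those that passed the test over time. Neighbouring loci and the other named list genes were added after their values were seen, as was the mean of the later time points. Of 76 identifiers proposed for the lists, 48 had no name in the sources and were left out. For 23729 identifiers, an entry was found in a RefSeq gene table of another assembly, ASM3414082v1, used only for names and gene order. No sequences were used here.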

Additional observations from a re-analysis of the deposited data

Results flagged for a closer look

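For PR10a, PBZ1, and NPR1, the change over time was not the same in FL and SL, by the interaction of leaf and time point in limma (adjusted p = 0.011, 0.016, and 0.00632). For PR10a and PBZ1, FL minus SL was 0.49 and 0.16 at 4 DAH and -1.38 and -1.16 at 36 DAH, and for NPR1 it was -0.20 at 4 DAH and 0.46 at 28 DAH. The 3 adjusted p-values stayed below 0.05 in the 5 alternatives to which the test applied and with any 1 of the 36 libraries left out, with ranges of 0.00147 to 0.0263 for PR10a, 0.00492 to 0.0347 for PBZ1, and 0.00201 to 0.0242 for NPR1.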

How the results depend on the processing

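Of the 132 tests on single genes of the set, 62 were called, and 44 of these calls held in every alternative run and with each library left out. The other 18 were lost in at least 1 of them, and 11 tests without a call gained one. No called value reversed its sign. Of all tested genes, 3.8% to 30.4% were called for FL minus SL at single time points, and 28.6% to 57.4% for changes from 4 DAH. The shares were 48.8% for the average, 78.9% and 77.8% over time in FL and SL, and 20.2% for the interaction. For 36 DAH against its neighbours they were 53.2% in FL and 51.2% in SL. The counts for the 6 genes are to be read beside these shares. Of 36 tests of FL minus SL at single time points, 10 were called, and 6 when only the 6 libraries of a time point were fitted. Of the 10 calls, those at 20 DAH held in these fits, and all those at 28, 36, and 44 DAH were lost. The calls of PR1a and PR10a at 4 DAH were gained. In those fits the number of all genes called was 4978 at 4 DAH, 2035 at 28 DAH, and 0 at 36 and at 44 DAH, against 3108, 5229, 2409, and 838 with a shared spread. At 36 and 44 DAH edgeR called 1956 and 683 genes. With each library left out in turn, the counts of calls were 8 to 10 of 36 at single time points, 5 of 6 for the average, 5 to 6 over time in FL, 4 to 6 over time in SL, 24 to 31 of 60 against 4 DAH, 3 to 4 of 6 for the interaction, and 4 of 12 for 36 DAH against its neighbours.

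Same-numbered FL and SL libraries are not said to come from the same plants, so the numbers were not taken as pairs. The deviations of same-numbered libraries from the group means correlated by -0.118 to 0.605 (mean 0.173) over 18 pairs, of which 11 were above 0.1. For different numbers the mean was -0.0888, with 7 of 36 pairs above 0.1. Of 18 FL libraries, 10 correlated best with the SL library of their own number, a hint of pairing from the data and not the design. For the same number at different time points of 1 leaf, the mean was 0.00416 over 90 pairs. With the replicate block, the counts of calls were 10, 5, 5, 5, 27, 3, and 4 in the order above, against 10, 5, 5, 5, 30, 3, and 4 without it. The block ended 3 calls, all of changes from 4 DAH within 1 leaf and none of FL against SL: Cht1 in FL at 12 DAH (adjusted p = 0.0596), PR10a in FL at 12 DAH (0.0711), and PR10a in SL at 36 DAH (0.0647). Depth limits the genes with 3 reads or fewer in some libraries, which were 21 libraries for the thaumatin-like OS12G0630100, 18 for Cht4, 15 for Cht3, 10 for Cht5, 4 each for WRKY62 and OS12G0569500, and 2 each for PR1a, PR1b, WRKY76, and OS12G0555300, and 1 for the beta-glucanase gene.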
